A study of Homo sapiens with 10 samples.

Results

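The cadherin superfamily was examined here without E-cadherin (CDH1) and N-cadherin (CDH2): the protocadherins, the remaining classical and related cadherins, the desmosomal cadherins, and the giant cadherins of the Fat and Dachsous families. Members were the genes whose symbol starts with PCDH, CDHR or CDH and a digit, the DSC and DSG genes, FAT1 to FAT4, DCHS1 and DCHS2, each read by the brightest of its probe sets that carry 1 gene symbol. This gave 84 genes of the 19775 measured. The cells were HuCCT1, an established human cholangiocarcinoma (bile duct cancer) line, transfected with an empty vector or with a YAP1 construct labelled YAPS94A, with 5 Affymetrix arrays per vector. The sample titles and the series title name the YAP1 substitution S94A, while the design text names S127A, so the construct is called YAPS94A here. The labels give neither separate cultures nor a shared transfected population behind the arrays, so each p-value reflects array-to-array spread only, and that spread may be technical. In such bulk RNA, fewer cells of a type and less RNA per cell cannot be told apart.

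Cadherins are calcium-dependent adhesion proteins with repeated extracellular domains. Classical cadherins bind catenins at adherens junctions, and desmosomal cadherins (desmogleins and desmocollins) bind plakoglobin and plakophilins and so connect to keratin filaments. Clustered protocadherins are encoded in 3 neighbouring clusters (alpha, beta and gamma). Cells each use a few of their promoters, a choice best known from neurons. FAT4 and DCHS1 are the human counterparts of the fly receptor and ligand Fat and Dachsous, which feed into the Hippo pathway that restrains YAP1.

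All values are the deposited log2 signals, differences are YAPS94A minus empty vector in log2 units, and a gene was called where the limma adjusted p was under 0.05. YAP1 itself was higher with the construct, by 0.52 ± 0.11 (SE, n = 5 per vector). The bile duct and epithelial markers KRT7, KRT19 and EPCAM read 13.59, 14.07 and 12.92 with empty vector, while the duct marker SPP1 was low (4.95). Of 9 such markers measured, KRT8 (0.33 ± 0.042), KRT19 (0.23 ± 0.036), CLDN4 (0.21 ± 0.044), KRT7 (0.17 ± 0.043) and KRT18 (0.13 ± 0.032) rose with the construct and SPP1 fell by 0.79 ± 0.12 (adjusted p = 0.000268). The 9 markers averaged 11.15 to 11.24 with empty vector and 11.17 to 11.26 with the construct, and their part in the junction genes' results was not tested. VIM, the mesenchymal intermediate filament, rose from 8.52 ± 0.077 to 12.54 ± 0.035 (mean ± SD, n = 5), by 4.02 ± 0.042 (16.2-fold, adjusted p = 8.71e-14). The fibroblast markers averaged 6.28 to 6.39 with empty vector and 6.62 to 6.71 with the construct, with 1 of 7 called, LUM (2.67 ± 0.088). COL1A1 and DCN, defining fibroblast genes, read 8.83 and 6.11 with empty vector and 8.71 and 6.10 with the construct. COL1A1 passed in the fit blocked on array number (-0.12, adjusted p = 0.0296). Of 7 endothelial, 4 leukocyte and 5 hepatocyte markers measured, 1 (CLDN5, -0.16), 0 and 0 were called by limma, and TEK (-0.14) passed as well in the blocked fit. The endothelial markers averaged 4.91 to 5.03 with empty vector and 4.85 to 5.0 with the construct.

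Of the 84 members, 14 were called, 7 higher and 7 lower with the construct. Over all genes 36.3% were called, 18.6% higher and 17.6% lower, so the members' share of 16.7% lay below the background. After the median of its chromosome neighbours was subtracted from each gene, 15 members were higher and 38 lower, against 23.1% and 20.1% of all genes. That median came from genes of above-median level and was taken as a fixed value, so these calls leave out its spread. A dim gene that did not change can thus be called lower where its neighbours rose. Of those 38, 29 were among the 36 clustered protocadherins, which share neighbours on chromosome 5 with medians of 0.23 and 0.24. A large part of the family read dimly: in 32 members both group means lay below 4.73, the lower quartile of all signals, as they did in 15.9% of all genes. Of these 32 dim members 1 was called (3.13%, against 6.32% of equally dim genes), and of the other 52 members 13 were called (25%, against 41.9%). At 2-fold or more 6 members were called, 4 higher and 2 lower (7.14%, against 3.27% of all genes, 2.03% higher and 1.24% lower). The median difference over the members was 0.008, beside -0.004 over all genes. The 2 vectors did not overlap for 13 members (15.5%), while 29.1% of all genes were so separated, and for each of these members an exact two-sided permutation test gives 0.0079, the smallest p that 5 against 5 allow. Except for FAT4, which is described with the Fat genes, the 70 members not called differed by -0.11 to 0.19.

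**Figure D1:**
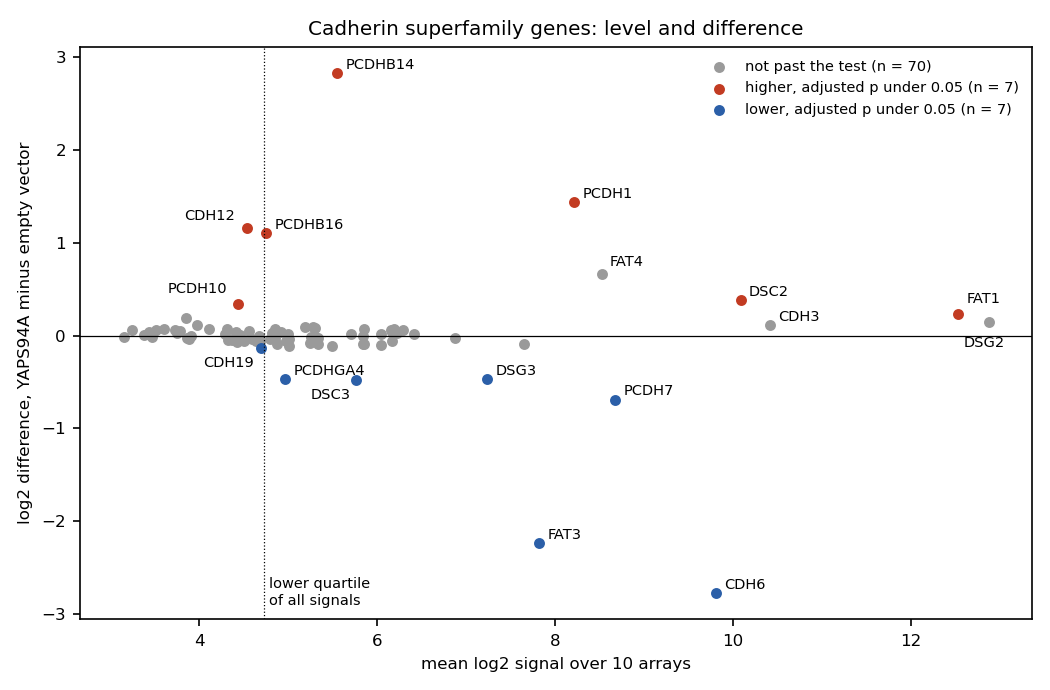
Mean log2 signal over the 10 arrays (x axis) and log2 difference between YAPS94A and empty vector (y axis) for the 84 members, with red points called higher (7), blue points called lower (7) and grey points not past the limma test (70). The dotted line marks the lower quartile of all signals, 4.73; CDH6 and FAT3 lie lowest, at -2.78 and -2.24, and PCDHB14 highest, at 2.83.

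Among the classical cadherins CDH6 fell most. CDH6 is a type II classical cadherin (K-cadherin), best known from the developing kidney. Its arrays read 11.17, 10.96, 11.23, 11.37 and 11.29 with empty vector and 8.28, 7.95, 8.82, 8.62 and 8.46 with the construct. Every construct array lay more than 2 units below every empty vector array, and the difference was -2.78 ± 0.14 (6.85-fold lower, adjusted p = 2.13e-08). All 6 probe sets of CDH6 were called lower, with differences from -2.78 to -1.49.

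The other call of size in this class went up. CDH12, a type II cadherin of the brain, read 3.98, 3.93, 4.19, 3.83 and 3.84 with empty vector and 5.23, 5.21, 4.94, 5.17 and 5.04 with the construct. The vectors were well separated, at 1.16 ± 0.077 (2.24-fold higher, adjusted p = 2.22e-07), but the empty vector level lay below the lower quartile of signals, so the fold is uncertain. CDH6 and CDH12 lie on the same chromosome, 5, and the genes around both had a median difference of -0.11. CDH19, a cadherin of Schwann cell precursors, was called lower by only 0.13 ± 0.040 (adjusted p = 0.0213) and lost the call when its probe sets were averaged (-0.024, adjusted p = 0.596). Its other probe sets, dimmer, differed in the opposite direction, by 0.031 and 0.029, and were not called. The CDH19 call was also lost without empty vector array 2 (0.0532), 4 (0.0502) or 5 (0.0543), without YAPS94A array 1 (0.0532), and without the arrays numbered 1 and 2 (0.0675), and its adjusted p ranged from 0.000711 to 0.596 over all alternatives.

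The remaining 12 of the 15 classical cadherins were not called and differed by -0.09 to 0.11. The share called in this class was 20%, against 36.3% of all genes. CDH3 (P-cadherin, found in basal and glandular epithelia) read 10.36, 10.12, 10.60, 10.36 and 10.37 with empty vector and 10.51, 10.40, 10.56, 10.47 and 10.41 with the construct. All construct arrays lay within the empty vector range, and CDH3 differed by 0.11 ± 0.075 (adjusted p = 0.304). CDH5, the endothelial VE-cadherin, and CDH11, a mesenchymal cadherin, read 4.84 and 5.02 with empty vector and differed by -0.020 and -0.035. The 2 cadherins left out of the family by definition both rose slightly on their brightest probe sets, CDH1 by 0.17 ± 0.033 (adjusted p = 0.00166) and CDH2 by 0.11 ± 0.038 (0.0373). A second CDH2 probe set went from 10.09 to 10.56 without overlap, 0.47 ± 0.048 higher (limma adjusted p = 1.65e-05 over all probe sets). On that scale the brightest CDH2 probe set had 0.0534. The second CDH1 probe set differed by 0.45 ± 0.22 and was not called (0.156).

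None of the 8 cadherin-related and 7-domain cadherins passed the test, against 36.3% of all genes. They include CDH16 (kidney cadherin), CDH17 (liver-intestine cadherin), CDHR2 and CDHR5 (which link the tips of microvilli) and CDH23 (part of the tip links of hair cells). Their differences lay between -0.058 and 0.072, and their mean signals between 3.51 and 6.30, all in the lower part of the array range. CDH16 read 5.26 and 5.24 (-0.019 ± 0.050), and CDH17 3.48 and 3.55 (0.065 ± 0.047). The intracellular partners of these proteins were counted beside them. Of 7 genes of the intermicrovillar and hair bundle complexes, 2 were higher and 1 lower, against 18.6% and 17.6% of all genes. MYO7A, the myosin of stereocilia, rose by 0.79 ± 0.060, ANKS4B rose by 0.16 ± 0.050 and CALML4 fell by 0.23 ± 0.075.

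**Figure D2:**
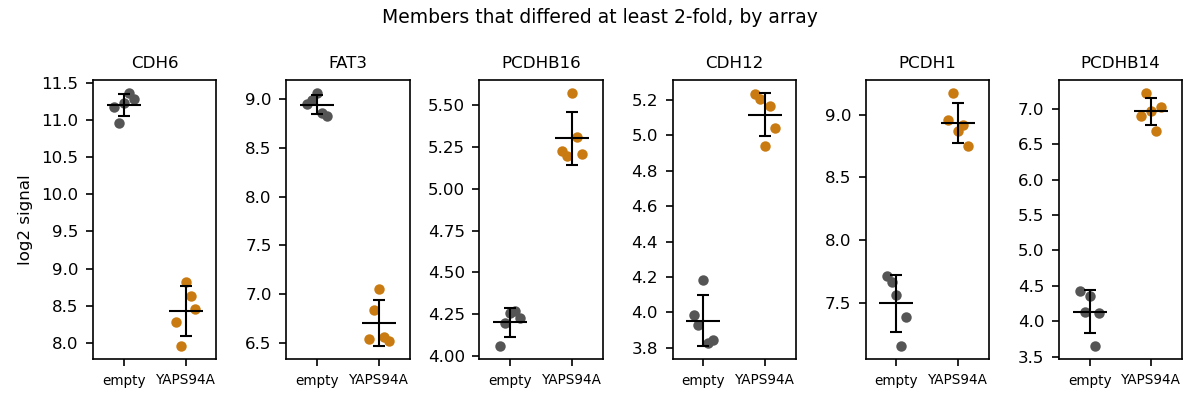
Log2 signal on each array (points) for the 6 members that differed at least 2-fold, with empty vector in grey and YAPS94A in orange, and the mean and SD of 5 arrays in black; each panel has its own vertical axis. The vectors do not overlap in any of the 6 panels: CDH6 and FAT3 are lower with YAPS94A, and PCDHB16, CDH12, PCDH1 and PCDHB14 are higher.

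Of the 17 beta protocadherin genes measured, 2 of them pseudogenes (PCDHB17P and PCDHB18P), 2 rose and 0 fell by limma. This is 11.8% called, against 36.3% of all genes. PCDHB14 read 4.42, 4.13, 4.36, 3.65 and 4.11 with empty vector and 6.91, 7.23, 6.97, 6.69 and 7.03 with the construct. It thus went from a level under the lower quartile of signals to one above the median of all signals (6.27), by 2.83 ± 0.14 (7.12-fold, adjusted p = 1.69e-08). PCDHB16 read 4.06, 4.19, 4.26, 4.27 and 4.23 with empty vector and 5.23, 5.19, 5.57, 5.31 and 5.21 with the construct, a rise of 1.10 ± 0.073 (adjusted p = 2.33e-07). Both started near background, so the folds are uncertain.

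Probe sets outside the choice of the brightest showed further rises in this cluster. The probe set shared by PCDHB9 and PCDHB10, which is assigned to no single gene and therefore to no member, read 4.25, 4.24, 4.63, 4.59 and 4.07 with empty vector and 6.96, 7.38, 7.03, 6.5 and 6.79 with the construct. This rise of 2.58 ± 0.15 (adjusted p = 1.73e-07 over all probe sets) was not seen on the probe set of PCDHB9 alone, which differed by 0.043. That probe set was dim with both vectors (3.41 and 3.46, below the lower quartile), so it cannot tell which gene of the pair rose. PCDHB13 is represented by an _x_at probe set, a kind open to cross-hybridisation, and differed there by 0.070 ± 0.069. Its second probe set, dimmer and without that suffix, went from 3.46 ± 0.082 to 4.59 ± 0.13 (mean ± SD, n = 5), 1.14 ± 0.064 higher with no overlap (adjusted p = 1.06e-07 over all probe sets).

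In all, 25 probe sets read beta genes, of which 5 were called higher, 0 were called lower by limma and 4 rose by at least 2-fold. Over all probe sets 13.9% were called higher, and 1.28% at 2-fold or more. The 4 read PCDHB16, PCDHB9 with PCDHB10, PCDHB13 and PCDHB14. In chromosome order they lie in the second part of the cluster, between PCDHB8 and PCDHB18P, with PCDHB11 and PCDHB12 in between. PCDHB11 and PCDHB12 differed by -0.059 and -0.037, but each has only an _x_at probe set. The probe sets of the genes from PCDHB1 to PCDHB8 lay between -0.029 and 0.053, apart from a dim _x_at probe set of PCDHB3 that was called higher (0.26). Except for those of PCDHB1 and the brighter one of PCDHB17P, they read below the lower quartile with both vectors, so rises could have been missed. PCDHB15, at the end of the cluster, differed by 0.19 ± 0.072 (adjusted p = 0.0615). PCDHB15 passed in the fit blocked on array number (0.0182), and over all alternatives its adjusted p ranged from 0.0182 to 0.580. PCDHB15 also passed with array weights (0.0235), with an intensity trend (0.0448), and without empty vector array 1 (0.0256), YAPS94A array 2 (0.0251) or YAPS94A array 4 (0.0359). Non-member genes around the beta cluster had a median difference of 0.24, and relative to them PCDHB14 and PCDHB16 were still higher, by 2.59 and 0.86.

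**Figure D3:**
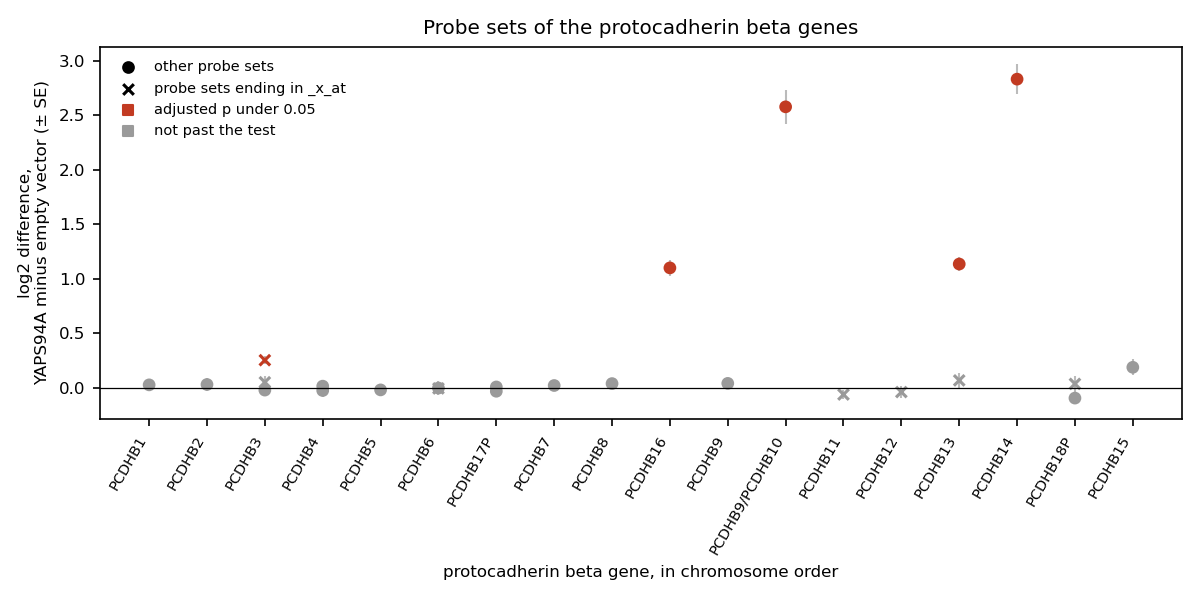
Log2 difference (± SE of the fit) of every probe set of the protocadherin beta genes, in chromosome order, with crosses for _x_at probe sets and dots for all others, red where the limma adjusted p over all probe sets was under 0.05. The 4 probe sets of PCDHB16, PCDHB9/PCDHB10, PCDHB13 and PCDHB14 stand at 1.10, 2.58, 1.14 and 2.83. The genes from PCDHB1 to PCDHB8 lie near 0, apart from a red _x_at probe set of PCDHB3 at 0.26.

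The promoters of the beta genes share a conserved sequence element, known from earlier work on this locus, and their letters are shown because beta genes with and without a risen probe set share it. The windows below are RefSeq sequence of GRCh38.p14, plus strand, 5′ to 3′, upstream of the annotated start, and the capitals mark the 9 bases GGTGGCGCT. Those of PCDHB14 (chr5:141223244-141223303), PCDHB16 (chr5:141182291-141182350) and PCDHB13 (chr5:141213846-141213905) belong to genes with a probe set of their own that rose at least 2-fold. Those of PCDHB9 (chr5:141187055-141187114) and PCDHB10 (chr5:141192280-141192339) belong to the pair that shares a risen probe set. That of PCDHB15 (chr5:141245295-141245354) belongs to a gene not called in the main fit that passed as higher in some alternatives. Those of PCDHB7 (chr5:141172547-141172606) and PCDHB5 (chr5:141135160-141135205) belong to genes with no risen probe set. Each of these has 1 probe set, below the lower quartile of signals with both vectors, so a rise could have been missed. PCDHB7 read 4.41 and 4.43, and PCDHB5 3.48 and 3.47.
PCDHB14: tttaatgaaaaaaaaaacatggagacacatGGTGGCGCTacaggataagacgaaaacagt
PCDHB16: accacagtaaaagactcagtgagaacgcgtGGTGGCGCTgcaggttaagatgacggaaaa
PCDHB13: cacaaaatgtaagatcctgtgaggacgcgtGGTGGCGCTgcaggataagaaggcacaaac
PCDHB9: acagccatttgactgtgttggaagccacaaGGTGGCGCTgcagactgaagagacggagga
PCDHB10: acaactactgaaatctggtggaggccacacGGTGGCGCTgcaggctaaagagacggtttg
PCDHB15: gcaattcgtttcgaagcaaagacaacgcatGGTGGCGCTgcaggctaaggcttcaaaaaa
PCDHB7: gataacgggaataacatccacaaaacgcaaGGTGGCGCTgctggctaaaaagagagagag
PCDHB5: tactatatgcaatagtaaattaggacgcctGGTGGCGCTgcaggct

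The 9 bases lay 69, 66 and 43 bases before the start in PCDHB14, PCDHB16 and PCDHB13, 76 and 43 bases before it in PCDHB9 and PCDHB10, and 70, 67 and 16 bases before it in PCDHB15, PCDHB7 and PCDHB5. On either strand of the 250 bases before the start, they were present in 12 of 14 beta promoters of the RefSeq table (85.7%), in 0 of 13 alpha and 0 of 20 gamma promoters, and in 0.41% of all 35116 promoters. The element was thus found in genes that rose and in genes that were not called. Only these exact 9 bases were searched. Their absence therefore does not show that an alpha or gamma promoter lacks a variant of the element, or one further upstream. The core letters GGAATG of the TEAD binding site, which do not overlap the element's letters, were searched in the same windows on both strands. They were present in 6 of the 63 members in the table (9.52%) and in 11.9% of all promoters. For both motifs, members and clusters were counted by gene, with a hit in any of its promoters. All promoters were counted singly, so the shares are in unlike units. By cluster they were in 3 of 14 beta (21.4%), 3 of 20 gamma (15%) and 1 of 13 alpha promoters (7.69%). The 3 beta promoters with GGAATG were those of PCDHB1, PCDHB7 and PCDHB13, and those of PCDHB14, PCDHB16, PCDHB9 and PCDHB10 held none. The whole window of PCDHB14 (chr5:141223093-141223342, plus strand), the beta gene with the largest rise, reads as follows, with the element in capitals.
PCDHB14: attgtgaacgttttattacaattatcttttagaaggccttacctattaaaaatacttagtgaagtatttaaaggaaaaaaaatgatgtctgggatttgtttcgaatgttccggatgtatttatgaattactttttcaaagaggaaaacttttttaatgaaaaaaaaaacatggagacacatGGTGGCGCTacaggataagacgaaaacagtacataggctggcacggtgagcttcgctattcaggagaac

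The alpha and gamma clusters differed little, with 0% and 7.69% of their genes called, against 36.3% of all genes. None of the 6 alpha genes with a probe set of their own passed (-0.11 to 0.092). Of 3 probe sets that list nearly all alpha genes, 1 was called, 0.29 ± 0.053 higher but dim (4.15 and 4.44), and the others differed by 0.090 and 0.12. Of the 13 gamma genes, which include the pseudogene PCDHGB8P, 1 was called, PCDHGA4, which fell from 5.20 ± 0.14 to 4.73 ± 0.073 (mean ± SD, n = 5), without overlap (-0.47 ± 0.065, adjusted p = 0.000122). The other 12 gamma genes lay between -0.088 and 0.094. PCDHGA4 has 1 probe set, and its own neighbours had a median of 0.23, opposite in sign.

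Regulators of the clustered locus were counted as partners. Of 13 genes, 2 were lower and 0 higher by limma, against 17.6% and 18.6% of all genes. In the fit blocked on array number 4 were lower and 2 higher. Lower in both fits were NIPBL, the cohesin loader (-0.21 ± 0.039), and SMCHD1, a chromatin protein that silences clustered protocadherins (-0.29 ± 0.094, adjusted p = 0.0296). Passing with the block and not without it were the higher SETDB1 (0.16, adjusted p = 0.0135) and SMC3 (0.14, 0.0493), and the lower EHMT1 (-0.24, 0.000849) and WIZ (-0.22, 0.00969). CTCF, the DNA-binding protein that folds this locus, differed by -0.020 ± 0.045.

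Of the 12 genes counted as non-clustered protocadherins, of which PCDH10-DT is a noncoding divergent transcript, 2 were higher and 1 was lower. The share called was 25%, against 36.3% of all genes. PCDH1, an epithelial protocadherin known from the airway, read 7.71, 7.67, 7.57, 7.16 and 7.39 with empty vector and 8.95, 9.18, 8.87, 8.92 and 8.75 with the construct. All construct arrays lay more than 1 unit above the empty vector arrays, for a rise of 1.44 ± 0.11 (adjusted p = 6.5e-07). On a dim second PCDH1 probe set the difference was 0.10 ± 0.041, with an adjusted p of 0.0838. Averaging both probe sets gave 0.77, which is under 2-fold. PCDH1 lies on chromosome 5 among genes with a median of 0.23.

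PCDH7, a protocadherin of the delta class, went the other way. It read 9.21, 8.93, 9.14, 8.98 and 8.87 with empty vector and 8.41, 8.38, 8.29, 8.25 and 8.35 with the construct, so that no arrays overlapped. PCDH7 fell by 0.69 ± 0.065 (1.61-fold, adjusted p = 4.83e-06), and of its 4 dimmer probe sets 3 were called lower as well. PCDH10, another delta protocadherin, rose by 0.34 ± 0.076 (adjusted p = 0.00367) on a dim probe set (4.27 and 4.61), while its other probe sets, dimmer still, were not called. PCDH18 was not called on its brightest probe set (0.015), but its second one went from 4.06 ± 0.105 to 4.80 ± 0.095 (mean ± SD, n = 5), 0.74 ± 0.061 higher (adjusted p = 2.6e-06 over all probe sets). PCDH18 was singled out after its values were seen. The 9 genes of this group without a call lay between -0.096 and 0.070.

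Kinases and actin regulators that protocadherins bind were called in both directions, where 18.6% of all genes were higher and 17.6% lower. Of 6 tyrosine kinase partners, PTK2 (focal adhesion kinase) rose by 0.19 ± 0.041 and FYN fell by 1.63 ± 0.097. FYN lay among neighbours with a median of -0.37, and PTK2 among neighbours at 0.20, about its own size. Of 10 WAVE complex and actin partners 3 were higher and 1 lower, with ABI1 at 0.88 ± 0.090, BRK1 at 0.19 ± 0.034, WASF3 at 0.32 ± 0.10 and CYFIP2 at -0.20 ± 0.062. In the blocked fit CYFIP1 (0.16, adjusted p = 0.00895) and ENAH (0.22, 0.00517) were higher too, and the kinases SRC (-0.14, 0.0344) and CSK (-0.14, 0.0184) lower. The neighbours of ABI1 had a median of 0.67 and those of BRK1 a median of 0.31.

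Of the 7 desmosomal cadherins, DSC2 rose, DSC3 and DSG3 fell, and DSG1, DSG2, DSG4 and DSC1 were not called. The share called was 42.9%, near the 36.3% of all genes. DSC2, the desmocollin of simple and most other epithelia, read 9.81, 9.72, 9.98, 10.01 and 9.97 with empty vector and 10.20, 9.95, 10.35, 10.39 and 10.52 with the construct. YAPS94A array 2 lay within the empty vector range and the other 4 above it, and the difference was 0.38 ± 0.099 (1.30-fold, adjusted p = 0.009). All 4 probe sets of DSC2 were called higher, by 0.38 to 0.47.

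DSG3, the desmoglein of basal layers in stratified epithelia, read 7.58, 7.38, 7.63, 7.39 and 7.37 with empty vector and 7.03, 6.93, 6.95, 6.98 and 7.11 with the construct. DSG3 fell without overlap, by 0.47 ± 0.061 (1.38-fold, adjusted p = 7.34e-05). DSC3, the desmocollin found with it, read 5.90, 5.91, 5.95, 6.27 and 6.0 with empty vector and 5.59, 5.45, 5.46, 5.73 and 5.42 with the construct. It fell by 0.48 ± 0.080 (adjusted p = 0.000529), and all probe sets of both genes were called lower. Of 5 keratinocyte markers measured, KRT5, a basal keratin, was lower (-0.51 ± 0.13) and KRT10 higher (0.18 ± 0.034). The 5 markers averaged 6.44 to 6.56 with empty vector and 6.29 to 6.48 with the construct, and KRT14 differed by -0.010. The part of these markers in the desmosomal result was not tested.

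DSG2, the desmoglein of simple epithelia, read 12.62, 12.76, 12.86, 12.89 and 12.89 with empty vector and 13.02, 12.82, 13.00, 12.96 and 12.98 with the construct. It differed by 0.15 ± 0.060 (adjusted p = 0.0754), and its adjusted p ranged from 0.0281 to 0.158 over the alternatives. Without YAPS94A array 2, the only construct array within the empty vector range, DSG2 passed (0.18, adjusted p = 0.0281). It also passed with quantile normalization, the mean of its probe sets, the intensity trend, array weights and the RNA quality covariate. DSG1, DSG4 and DSC1, the cadherins of differentiating skin and hair, read 3.91, 3.16 and 3.47 with empty vector and differed by at most 0.030. All 7 genes lie together on chromosome 18, where non-member neighbours had a median of 0.038.

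Plaque partners of desmosomes were called in both directions as well. Of 9 genes, 2 were higher and 3 lower, against 18.6% and 17.6% of all genes. JUP (plakoglobin), which binds both classical and desmosomal cadherins, rose by 0.38 ± 0.051, and the envelope protein gene PPL (periplakin) rose by 0.74 ± 0.14. KAZN (kazrin), a periplakin partner, fell by 1.13 ± 0.056, and PKP2 (plakophilin-2) by 0.19 ± 0.066. PERP, a desmosomal membrane protein gene whose probe set ends in _x_at, was called at -0.091 ± 0.032 (adjusted p = 0.0463) but not with the array number blocked (0.0703). The blocked fit called PKP1 lower (-0.22, adjusted p = 0.00681) and EVPL (0.28, 0.0149) and PKP3 (0.20, 0.0397) higher, for 4 higher and 3 lower. The neighbours of PKP2 and PERP had medians of -0.37 and -0.32. DSP, the desmoplakin that links the plaque to keratin, differed by 0.10 ± 0.059 (adjusted p = 0.22). Of 14 adherens junction plaque and nectin genes, 4 were higher and 1 lower, against the same shares of all genes. NECTIN3 rose by 0.51 ± 0.049, NECTIN2 by 0.19 ± 0.045, CTNNA1 (alpha-catenin) by 0.22 ± 0.048 and PKP4 by 0.13 ± 0.036. The CTNNA1 probe set carries the _x_at suffix, and the neighbours of CTNNA1 and PKP4 had medians of 0.19 and 0.23. NECTIN4 fell by 0.37 ± 0.087, CTNNAL1 passed with the block and not without it (-0.10, adjusted p = 0.0426), and CTNNB1 (beta-catenin) differed by -0.050 ± 0.038.

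**Figure D4:**
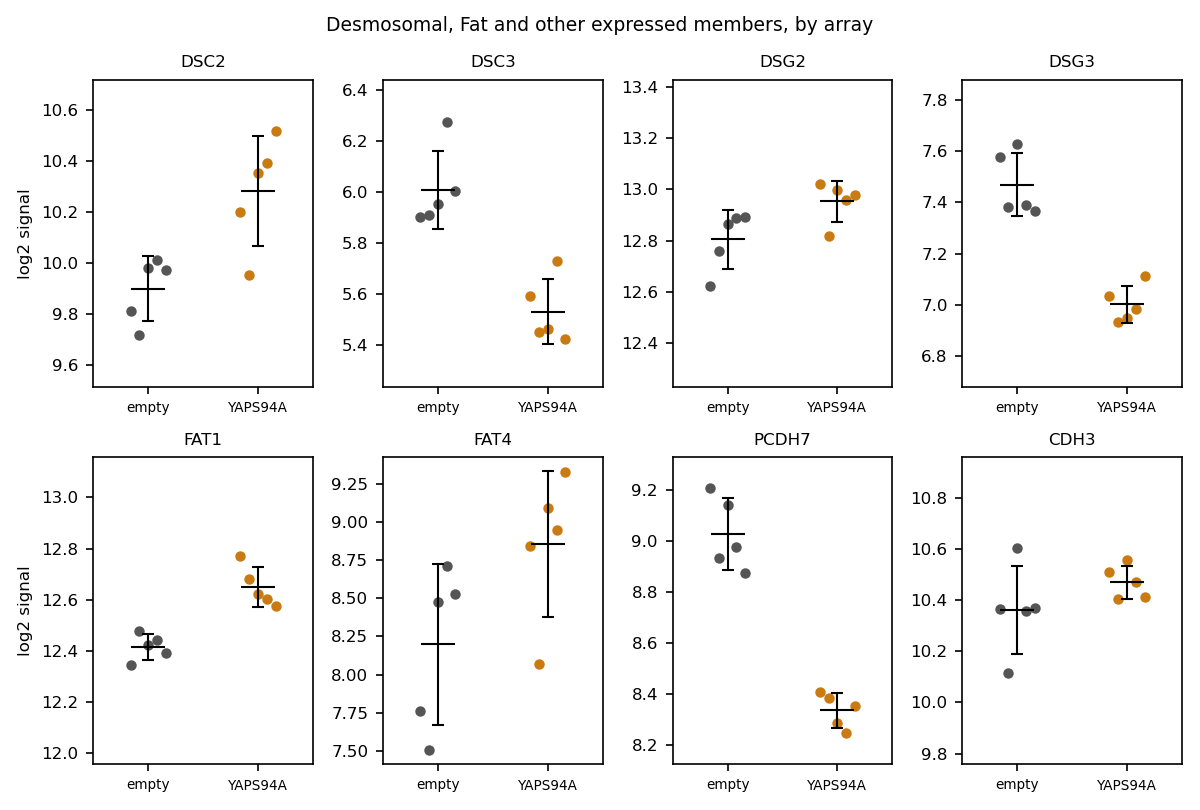
Log2 signal on each array (points) for DSC2, DSC3, DSG2, DSG3, FAT1, FAT4, PCDH7 and CDH3, with empty vector in grey, YAPS94A in orange, and the mean and SD of 5 arrays in black; each panel has its own vertical axis. DSC3, DSG3 and PCDH7 are lower with YAPS94A and FAT1 is higher, all 4 without overlap, while the arrays of DSC2, DSG2, FAT4 and CDH3 overlap between vectors.

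Of the 6 Fat and Dachsous cadherins, FAT3 fell and FAT1 rose (33.3% called, near the 36.3% of all genes). FAT3, best known from the nervous system, read 8.95, 8.99, 9.06, 8.86 and 8.83 with empty vector and 6.54, 6.84, 7.05, 6.56 and 6.52 with the construct. The fall was 2.24 ± 0.10 (4.71-fold, adjusted p = 7.51e-09), and a second probe set of the same brightness fell by 2.29 ± 0.052. The third FAT3 probe set was dim with both vectors (3.70 and 3.71). FAT1, a broadly expressed Fat cadherin that binds Hippo kinases, read 12.34, 12.48, 12.42, 12.44 and 12.39 with empty vector and 12.77, 12.68, 12.62, 12.60 and 12.58 with the construct. It rose without overlap but by little, 0.23 ± 0.045 (1.18-fold, adjusted p = 0.0013).

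FAT4 varied more between arrays of 1 vector than any other member named. It read 7.76, 7.50, 8.48, 8.71 and 8.53 with empty vector and 8.84, 8.07, 9.09, 8.95 and 9.33 with the construct. Empty vector arrays 1 and 2 and YAPS94A array 2 were low, and the difference of 0.66 ± 0.27 did not pass (adjusted p = 0.0804). FAT4 passed in the fit blocked on array number (adjusted p = 0.00105), as it did without the arrays numbered 1 and 2 (0.55, adjusted p = 0.00443), without YAPS94A array 2 (0.86, 0.0138), without empty vector array 4 (0.79, 0.0458) and with array weights (0.0327). Over all alternatives its adjusted p ranged from 0.00105 to 0.179. The ACTB control signal at the 3′ end minus that at the 5′ end, a measure of RNA integrity, was 1.51, 1.24, 1.14, 0.90 and 0.84 on the empty vector arrays and 1.14, 1.43, 0.91, 0.80 and 0.76 on the construct arrays. The 3 arrays low for FAT4 had the highest values of this measure, and with it as a covariate the FAT4 difference was 0.48 (adjusted p = 0.023). The same measure for the GAPDH control did not single out these 3 arrays. It was 0.20, 0.13, 0.21, 0.14 and 0.11 on the empty vector arrays and 0.22, 0.22, 0.17, 0.11 and 0.13 on the construct arrays. The part of RNA integrity in the FAT4 values was not tested.

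The ligands and the last Fat gene were not called. DCHS1 read 5.29 ± 0.036 and 5.21 ± 0.11 (mean ± SD, n = 5), DCHS2 4.54 ± 0.13 and 4.48 ± 0.11, and FAT2, a Fat cadherin of skin and cerebellum, 5.34 ± 0.12 and 5.31 ± 0.073. Their differences were -0.085, -0.053 and -0.031. Relative to its chromosome neighbours (median 0.18), FAT2 was at -0.21 and passed by limma (adjusted p = 0.0136). Most of that value is the subtracted median, and the p leaves out the neighbours' spread, so it is no result about FAT2 itself. Of 10 partner genes of the Fat and planar polarity pathways, 2 were higher and 1 lower, against 18.6% and 17.6% of all genes. VANGL1 and VANGL2, the core polarity membrane proteins, rose by 0.45 ± 0.038 and 0.73 ± 0.11, and ATN1 (atrophin-1), a counterpart of a fly Fat partner, fell by 0.44 ± 0.046. FJX1, the counterpart of the fly kinase that modifies Fat and Dachsous, differed by -0.092 ± 0.076.

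Proteases that cleave cadherins at the cell surface and in the membrane were also counted. Of 11 measured 2 were higher and 2 lower, against 18.6% and 17.6% of all genes. ADAM15 rose by 0.72 ± 0.090 and PSENEN, a gamma-secretase subunit, by 0.46 ± 0.13. MMP14 fell by 0.34 ± 0.051 and ADAM17 by 0.21 ± 0.055. NCSTN (nicastrin) passed with the block and not without it (-0.12, adjusted p = 0.0426). ADAM10, the main sheddase of classical and gamma protocadherins, differed by 0.048 ± 0.043.

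Probe sets outside the rule's choice can be read as a second view of the members. The 84 members had 65 further probe sets. Of the 23 that belong to called members, 19 had the sign of the chosen probe set, 15 were called in its direction and 0 in the opposite direction by limma over all probe sets. Of the 42 that belong to members not called, 3 were called higher and 2 lower. No called member was read by an _x_at probe set and 2 by an _s_at probe set (PCDH7 and DSC3), whereas 12 of the 84 members were read by _x_at probe sets, 6 of these 12 among the beta genes. Of the 16 probe sets that list several symbols of this family, 3 were called higher and 1 lower.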

How the data were processed

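The deposited table holds 54675 probe sets on 10 arrays, 5 per vector, as log2 signals, made per the labels' protocols from NuGEN-amplified, biotin-labelled cDNA. For the authors' summarisation and normalization of these deposited log2 values, no method is given in the sources used here. They were used without further scaling. The platform annotation, updated through RefSeq (GRCh38.p14), gave 41097 probe sets 1 symbol, 1801 several and 11777 none. The noncoding DSG2-AS1 is no member, and CDH13, which the naming rule lists, is not analysed here. Vectors were compared with limma 3.58.1 (R 4.3.3, lmFit and eBayes), two-sided, unblocked, over all 19775 genes, with Benjamini-Hochberg adjustment at 0.05, and dimmer probe sets over all probe sets. Neighbour medians cover the 30 nearest non-member genes of above-median level. Members and lists were chosen with earlier results of these data known. Values by array were fixed for members called at 2-fold or more and the 5 brightest, names for the desmosomal, Fat and Dachsous genes and 9 cadherins, and the 4 called partners per list with the smallest p. All others (CDH19, PCDH10, PCDH18, PCDHGA4, beta genes below 2-fold, further partners) were singled out after their values were seen. Deviations of same-numbered arrays correlated (r = 0.102 to 0.59, above 0.1 in all 5 pairs). Arrays with unlike numbers were not compared in this way, so these r alone do not show that the number marks a pairing. The block on array number rests on the data and not on a stated batch, so blocked values stand beside results they change. Figures used matplotlib 3.10.9.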

Additional observations from a re-analysis of the deposited data

Results flagged for a closer look

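In 60 groups of 5 arrays (the 2 vectors for each of 30 named members), 4 held an array far from the others by Dixon's criterion, whose critical value for 5 arrays is 0.71. Chance alone gives about 1 in 20. Empty vector array 4 was high for DSC3 (6.27, next 6.0, gap over range 0.731) and for DSG1 (4.02, next 3.91, 0.715). Empty vector array 1 was high for PCDH10 (4.48, next 4.25, 0.803). YAPS94A array 5 was low for CDH16 (5.15, next 5.25, 0.724). The calls of DSC3 and PCDH10 and the absence of a call for DSG1 held without each array in turn.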

How the results depend on the processing

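The 3 counts, the median and 30 named members were recomputed under 23 alternatives, of which the RNA quality covariate, and the count at 2-fold, were added after seeing the data. The main values were 7 higher, 7 lower, 6 at 2-fold or more and a median of 0.008. Leaving out each array gave 7 to 10 higher, 6 to 8 lower, 6 at 2-fold or more and medians of -0.004 to 0.020. Among the 14 members above the median signal 3 were higher, 4 lower and 3 at 2-fold or more, with a median of 0.037, because fewer genes were tested. Among the 50 above the lower quartile the median was -0.011. The mean of probe sets called 11 higher and left 5 at 2-fold or more, without PCDH1 (0.77). Subtracting the neighbour median called 15 higher and 38 lower, with a median of -0.13: by construction each member moves by its neighbours' median. The calls made there leave out the spread of the neighbours. CDH11 (0.35), CDH16 (0.33) and CDH5 (0.37) reversed there, among neighbours that fell. With the array number as a replicate block, 9 members were higher and 7 lower. The block added FAT4 (adjusted p = 0.00105) and PCDHB15 (0.0182) and changed no other member's call, while it added 13 partner genes and removed PERP. Of the 30 named members 20 kept their call in each alternative that could be run on them. The other 10 were CDH5, CDH11, CDH16, CDH19, DSG2, FAT2, FAT4, PCDH18, PCDHB13 and PCDHB15. CDH11 passed when its probe sets were averaged (-0.11, adjusted p = 0.019). Without detection calls, background limits the fold of genes that start or end below the lower quartile of signals.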
